A study of Rattus norvegicus with 10 samples.

Results

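The genes described here are 39 genes of the cell cycle and DNA replication, from the cyclins that open G1 to the motors of the mitotic spindle, measured as mRNA in rat liver after a short iron-deficient diet. They were taken from a fixed list, and each was read from the brightest of the probe sets that the array's annotation pairs with exactly 1 gene. In this way 38 of the 39 genes were measured, out of 14217 genes with such a probe set. Rrm2, the small subunit of ribonucleotide reductase, was the gene left out, because both of its probe sets are also paired with Rrm2l1. Male Sprague-Dawley rats, 5 weeks of age by the labels, received for 3 days either a diet made without its ferric citrate, at about 3 ppm iron (iron-deficient group, n = 5), or the same diet at 48 ppm iron in portions matched to the other group's intake (pair-fed group, n = 5). All of them had first been kept on the diet with iron and trained to eat in a daytime window, and the liver was taken 1.5 h after a meal. Whole liver RNA of each rat was hybridised to 1 Affymetrix rat genome array. The values are log2 signals, so that a difference of 1 is a 2-fold change.

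A dividing cell passes from G1, in which cyclin D and cyclin E with their kinases commit it to replication, through S phase, in which the MCM helicase opens the DNA and PCNA holds the polymerases on it. It then passes through G2 into mitosis, driven by cyclin B with Cdk1. Hepatocytes of a grown liver rarely divide, whereas the liver of a young growing rat still holds dividing cells. Iron enters this pathway at ribonucleotide reductase, which makes the deoxynucleotides of DNA and whose small subunit carries an iron centre, and at the iron-sulfur clusters of DNA polymerases, primase and several helicases. In whole liver, fewer dividing cells and less RNA per dividing cell cannot be told apart.

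The members differ in their promoters as well as in their roles. Promoters of 32 of the 39 genes were found in a RefSeq table of the rat assembly GRCr8, each running from 250 bases before to 50 bases after the start of the gene. They were searched on both strands for the cell cycle homology region (CHR, TTTGAA), through which the DREAM and MuvB complexes act on genes of G2 and mitosis, for the CCAAT box (CCAAT), and for the E2F site (TTTCCCGC or TTTGGCGC) of genes of the G1 to S transition. A CHR match was found in 11 of 16 mitotic members (68.8%) and in 1 of 8 replication fork members (12.5%), against 18.3% of all 33469 promoters of the table. For the E2F site the order was turned round, with a match in 5 of 8 replication fork members (62.5%) and in 0 of 16 mitotic members, against 1.4% of all promoters. The CCAAT box was found in 13 of 16 mitotic members (81.2%), in 6 of 8 replication fork members (75.0%) and in 37.5% of all promoters. No member held both a CHR and an E2F match. These are matches of letters in a window, and no test was made of them. They are shown because the CHR and E2F shares, unlike the CCAAT share, differ between the mitotic and the replication fork members.

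**Figure D1:**
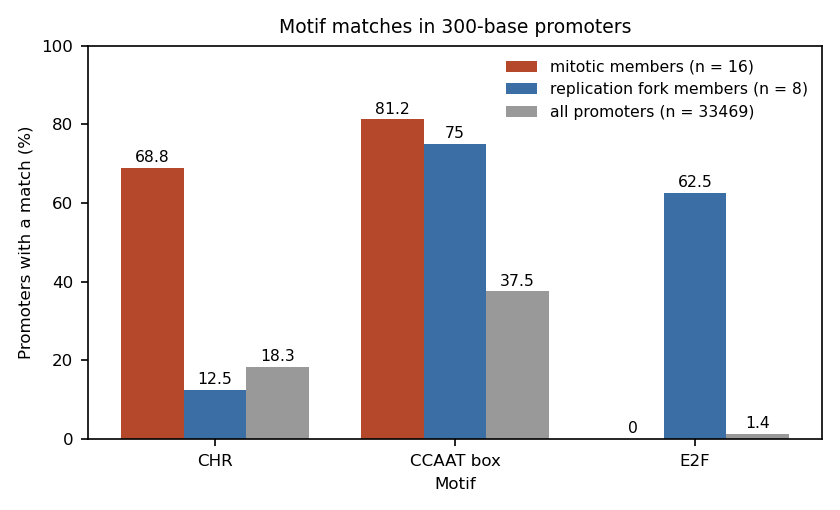
Bars show the percent of 300-base promoters (y axis) that hold a match to each of 3 motifs (x axis) on either strand, for 16 mitotic members, 8 replication fork members and all 33469 promoters of the table. The CHR bar is highest for the mitotic members (68.8%) and the E2F bar for the replication fork members (62.5%), while the CCAAT bars of both classes lie above that of all promoters (37.5%).

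The windows below of 60 bases, all of them before the start of the gene, show the CHR match nearest to the start in 8 members. They include Cdkn3, the only member past the test between the diets, and Mki67, Prc1, Cdk1 and Ccnb2, which did not pass. Of the 13 measured members with a CHR match, 10 were higher and 3 lower in the iron-deficient group, where 47.5% of all genes were higher. Their log2 fold changes ran from -0.05 to 0.68. Bub1, with one of the larger differences among the mitotic members (0.26), held no CHR match. A link between the motif and the diet was not tested. Capitals mark each CHR (TTTGAA, or TTCAAA on the other strand) and each CCAAT box (CCAAT, or ATTGG on the other strand), and 7 of the 8 windows hold both. In Mki67 the second CHR shares 1 base with a CCAAT box. That was the only overlap between motifs of different kinds in the members' promoters.
Mki67 (chr1:199952660-199952719, minus strand): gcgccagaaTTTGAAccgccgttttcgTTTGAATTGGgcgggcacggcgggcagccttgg
Top2a (chr10:84473094-84473153, minus strand): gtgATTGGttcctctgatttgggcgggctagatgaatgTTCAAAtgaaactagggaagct
Prc1 (chr1:143659421-143659480, plus strand): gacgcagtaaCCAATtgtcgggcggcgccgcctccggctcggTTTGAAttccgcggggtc
Cdk1 (chr20:19265233-19265292, plus strand): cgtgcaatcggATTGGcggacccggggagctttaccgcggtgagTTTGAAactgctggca
Ccnb2 (chr8:79981669-79981728, minus strand): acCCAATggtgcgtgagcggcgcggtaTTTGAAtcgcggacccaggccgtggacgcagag
Cdc20 (chr5:137255818-137255877, minus strand): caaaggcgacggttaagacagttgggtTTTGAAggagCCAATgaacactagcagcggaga
Birc5 (chr10:103572086-103572145, plus strand): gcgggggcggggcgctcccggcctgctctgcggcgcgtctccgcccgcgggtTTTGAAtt
Cdkn3 (chr15:22502210-22502269, plus strand): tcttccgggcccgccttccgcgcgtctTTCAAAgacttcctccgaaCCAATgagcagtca

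The next 5 windows show the E2F match nearest to the start in 4 replication fork members and in Tyms, which makes thymidylate for DNA. Capitals mark the E2F site (TTTCCCGC, TTTGGCGC or their complements) and the CCAAT box, which stands in 2 of the 5 windows. In Gins1 matches on both strands overlap and read as 1 run of capitals.
Gins1 (chr3:160184860-160184919, plus strand): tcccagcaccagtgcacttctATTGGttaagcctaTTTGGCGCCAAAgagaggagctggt
Mcm5 (chr19:13488753-13488812, plus strand): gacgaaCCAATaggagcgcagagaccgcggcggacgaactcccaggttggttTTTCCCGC
Mcm6 (chr13:42404458-42404517, minus strand): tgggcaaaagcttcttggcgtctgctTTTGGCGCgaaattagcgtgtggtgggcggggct
Mcm7 (chr12:22163369-22163428, minus strand): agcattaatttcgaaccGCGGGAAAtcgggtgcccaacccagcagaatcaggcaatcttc
Tyms (chr9:120776087-120776146, minus strand): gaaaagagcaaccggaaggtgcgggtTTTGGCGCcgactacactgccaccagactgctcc

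Between the diets, 1 of the 38 measured members passed the rank products test, the method the study's authors used, at a false discovery rate (FDR) under 0.05. This was Cdkn3, a phosphatase that removes the activating phosphate of Cdk2, and it was up-regulated in the iron-deficient group. No member was down-regulated. Over all 31042 probe sets tested, 0.28% were up-regulated and 0.561% down-regulated by this test. Of the 14217 genes, each by its brightest probe set, 41 were up-regulated and 106 down-regulated. In limma, which gives each gene an error, 0 members and 0% of all probe sets had an adjusted p under 0.05, and the lowest adjusted p of a member was 0.601. Before adjustment, limma gave 1 member a higher level (Cdkn3) and 1 a lower level (Mcm7) at p under 0.05. Of all probe sets 3.21% were higher and 3.77% lower in this way, and of the 14217 genes 413 were higher and 703 lower. In 0 of 38 members did all rats of one group lie above all rats of the other, against 1.29% of all probe sets and 231 of the 14217 genes. The mean was higher in the iron-deficient group for 22 members and lower for 16. The median log2 fold change, always given as the iron-deficient minus the pair-fed level, was 0.04 over the members and -0.01 over all 14217 genes. It was -0.01 among the 24 members brighter than the median probe set and also without pair-fed replicate 3, so that it had no settled sign.

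**Figure D2:**
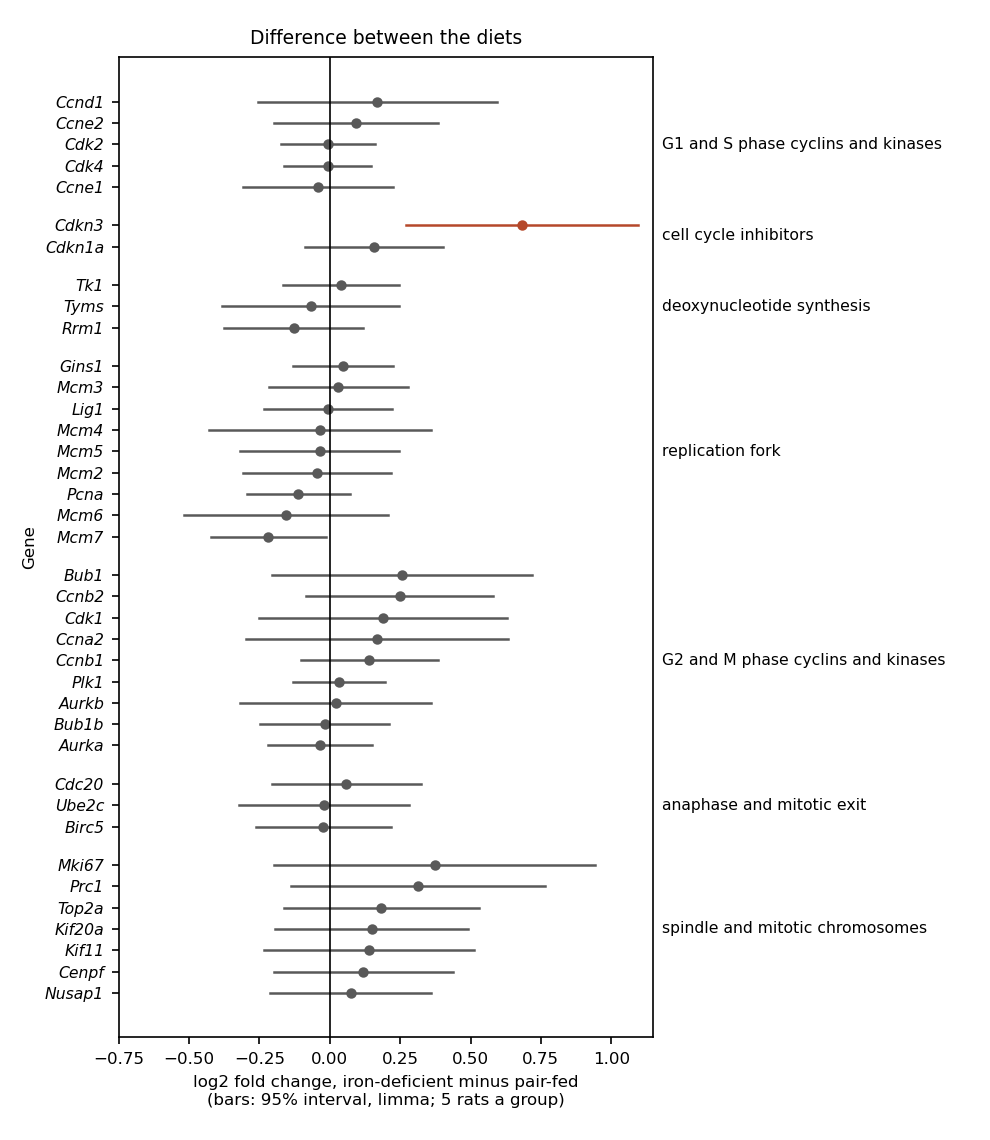
Points show the log2 fold change of each of the 38 measured members (x axis, iron-deficient minus pair-fed) with its 95% interval from limma, by role (y axis). The interval of Cdkn3, in red, lies above 0 and that of Mcm7 lies below 0, and the intervals of the other 36 members hold 0.

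Cdkn3 read 7.87, 8.13, 7.69, 7.26 and 7.34 in iron-deficient replicates 1 to 5. It read 7.0, 7.14, 6.37, 7.04 and 7.32 in pair-fed replicates 1 to 5. All 5 iron-deficient rats lay above the pair-fed median, and the groups overlapped only through pair-fed replicate 5, which lay above iron-deficient replicate 4. The level was 7.66 ± 0.36 (SD, n = 5) against 6.97 ± 0.36 (SD, n = 5), a log2 fold change of 0.68 with a standard error (SE) of 0.19, or 1.61-fold. The FDR was 0.00467 by rank products, and the exact permutation test over the 10 rats, 2-sided, gave p = 0.0159, where the smallest p it can give is 0.00794. Without iron-deficient replicate 2 the log2 fold change was 0.57 and the FDR 0.0846, so that the call was lost. By the rank sum the FDR was 0.146. Cdkn1a, the p53 target p21 that inhibits cyclin-dependent kinases, is the other inhibitor among the members and had a log2 fold change of 0.16 (SE 0.11), which did not pass.

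Of ribonucleotide reductase, the large subunit Rrm1 could be assigned. It read 7.31, 7.55, 7.0, 6.99 and 7.24 in iron-deficient replicates 1 to 5 and 7.51, 7.49, 7.19, 7.16 and 7.37 in pair-fed replicates 1 to 5. The groups overlapped, and iron-deficient replicate 2 was the highest of all 10 rats. Iron-deficient replicates 3 and 4 lay below all pair-fed rats, and 1 of the 5 iron-deficient rats lay above the pair-fed median. The difference between the groups was -0.13 on the log2 scale (SE 0.11, 95% interval -0.37 to 0.12), and the exact permutation test gave p = 0.341. A fall of Rrm1 mRNA by more than 0.37 on the log2 scale thus lies outside the interval. The signal shared by Rrm2 and Rrm2l1 read 7.73, 8.02, 6.84, 6.40 and 6.97 in the iron-deficient rats and 7.25, 7.15, 6.50, 6.63 and 7.0 in the pair-fed rats on the brighter of its probe sets. Iron-deficient replicates 1 and 2 were the highest and replicate 4 the lowest, so that the pair-fed rats lay within the range of the other group. The difference was 0.29 (SE 0.27), and on the dimmer probe set 0.22 (SE 0.14), and neither passed. Which of the 2 loci gave the signal could not be told from these probe sets. Tyms, thymidylate synthase, and Tk1, thymidine kinase, had log2 fold changes of -0.07 and 0.04.

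The genes of the replication fork were lower in the iron-deficient group in 7 of 9 members, against 52.5% of all genes. These genes varied together from rat to rat, as described below, so that they are not 9 separate observations. The amounts were small, with a median log2 fold change of -0.04, and none passed. The median turned positive without iron-deficient replicate 3 or 4 or without pair-fed replicate 1 or 2, with a highest value of 0.03. Mcm7, a subunit of the MCM helicase, differed most. It read 8.40, 8.64, 8.25, 8.50 and 8.63 in iron-deficient replicates 1 to 5 and 8.90, 8.81, 8.65, 8.56 and 8.58 in pair-fed replicates 1 to 5. All 5 iron-deficient rats lay below the pair-fed median, although the groups overlapped. The log2 fold change was -0.22 (SE 0.09, 95% interval -0.42 to -0.01), with p = 0.0635 by the exact permutation test and an adjusted p of 0.695 in limma. The other MCM subunits had log2 fold changes of -0.16 for Mcm6, -0.05 for Mcm2, -0.04 for Mcm5, -0.03 for Mcm4 and 0.03 for Mcm3. Pcna, the sliding clamp, had -0.11, Lig1, which joins Okazaki fragments, -0.01, and Gins1, a part of the GINS complex that activates the helicase, 0.05.

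Of the G1 and S phase cyclins and kinases, 2 of 5 were higher and none passed. Ccnd1, cyclin D1, differed most. It read 10.78, 10.05, 9.93, 10.65 and 10.98 in iron-deficient replicates 1 to 5 and 10.19, 10.22, 10.04, 10.70 and 10.41 in pair-fed replicates 1 to 5. Replicates 1, 4 and 5 of the iron-deficient group were high and replicates 2 and 3 low, a different order of rats from that of the mitotic genes below. This gave a log2 fold change of 0.17 (SE 0.20, exact permutation p = 0.492), and 2 further probe sets of the gene gave 0.03 and 0.16. It was 0.04 without iron-deficient replicate 5 and 0.31 without iron-deficient replicate 3. Ccne2 and Ccne1, the E cyclins, had 0.09 and -0.04, and their kinase Cdk2 and the cyclin D kinase Cdk4 both had -0.01.

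The members that act in G2 and mitosis carried most of the higher values. Of these, 15 of 19 were higher in the iron-deficient group, against 47.5% of all genes. Their median log2 fold change was 0.14, and none of them passed. The 19 genes varied together from rat to rat, as described below, so that they are not 19 separate observations. Of the cyclins and kinases of G2 and M phase 7 of 9 were higher, and of the genes of the spindle and mitotic chromosomes 7 of 7. Of the genes of anaphase and mitotic exit 1 of 3 was. Only 4 of the 9 cyclins and kinases and 3 of the 7 spindle and chromosome genes were brighter than the median probe set. Mki67 and Bub1 were dimmer than it. Mki67, the Ki-67 protein that coats mitotic chromosomes and is widely used as a marker of dividing cells, differed most. It read 6.50, 6.57, 5.25, 5.49 and 5.64 in iron-deficient replicates 1 to 5 and 5.95, 5.68, 4.91, 5.43 and 5.63 in pair-fed replicates 1 to 5. Iron-deficient replicates 1 and 2 lay above all pair-fed rats, while the other 3 lay within the pair-fed range. The log2 fold change was 0.37 (SE 0.26, 95% interval -0.20 to 0.94), with p = 0.27 by the exact permutation test. It was 0.20 without iron-deficient replicate 2 and 0.22 without iron-deficient replicate 1 or without pair-fed replicate 3.

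Bub1, a kinase of the spindle checkpoint, gave a like pattern. It read 6.48, 5.96, 5.26, 5.46 and 5.45 in iron-deficient replicates 1 to 5 and 5.80, 5.70, 5.09, 5.38 and 5.35 in pair-fed replicates 1 to 5, and again iron-deficient replicates 1 and 2 alone lay above the pair-fed range. The groups differed by 0.26 (SE 0.21, exact permutation p = 0.373), and without iron-deficient replicate 1 it was 0.07. Others of its class had 0.25 for Ccnb2 and 0.14 for Ccnb1, the B cyclins, 0.19 for their kinase Cdk1 and 0.17 for Ccna2, cyclin A2. The remaining kinases were close to 0, with 0.03 for Plk1, 0.02 for Aurkb, -0.02 for Bub1b and -0.04 for Aurka. On the spindle and the mitotic chromosomes, Prc1, which bundles the midzone microtubules, had 0.31 and Top2a, topoisomerase IIα, had 0.18. The motors Kif20a and Kif11 had 0.15 and 0.14, Cenpf of the kinetochore 0.12 and Nusap1, which binds spindle microtubules, 0.07.

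Cdc20, the activator of the anaphase-promoting complex, stood for the genes of mitotic exit. It read 6.87, 7.07, 6.51, 7.05 and 6.79 in iron-deficient replicates 1 to 5 and 7.13, 6.88, 6.65, 6.71 and 6.63 in pair-fed replicates 1 to 5, with both groups spread over the same range. The difference was 0.06 (SE 0.12), and 1 of 4 dimmer probe sets of the gene differed in sign (-0.06). Ube2c, the ubiquitin-conjugating enzyme of that complex, and Birc5, survivin, both had -0.02.

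**Figure D3:**
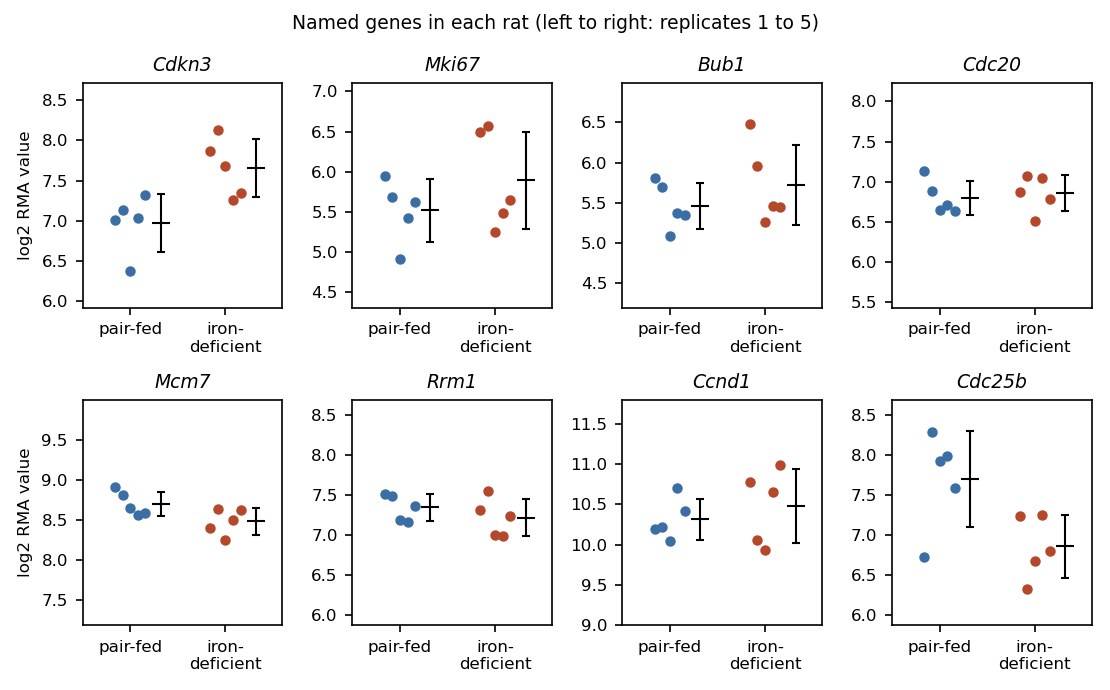
Points show the log2 value (y axis) of 8 genes in each pair-fed (blue) and each iron-deficient rat (red), with replicates 1 to 5 from left to right in each group, and bars show the mean and SD (n = 5). Cdkn3 is higher and Cdc25b lower in the iron-deficient group, while for Mki67 and Bub1 iron-deficient replicates 1 and 2 stand above the other rats; all panels span the same range of log2 values.

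Rats on the same diet differed from each other in these genes. The mean over the 38 members was 7.0, 7.01, 6.59, 6.64 and 6.68 in iron-deficient replicates 1 to 5 and 6.88, 6.86, 6.47, 6.64 and 6.71 in pair-fed replicates 1 to 5. Iron-deficient replicates 2 and 1 had the highest value of all 10 rats in 15 and 10 of the 38 members, and pair-fed replicate 3 had the lowest in 16. Over the 7 genes of the spindle and mitotic chromosomes the means were 6.67, 6.65, 5.87, 5.97 and 6.14 in the iron-deficient rats and 6.35, 6.14, 5.74, 6.02 and 6.08 in the pair-fed rats. Iron-deficient replicates 1 and 2 were highest and pair-fed replicate 3 was lowest. The group means, 6.26 ± 0.38 (SD, n = 5) in the iron-deficient and 6.07 ± 0.22 (SD, n = 5) in the pair-fed rats, differed by 0.19, less than either SD. The SD within the iron-deficient group exceeded that within the pair-fed group in 28 of 38 members (73.7%), and in 7 of the 7 genes of the spindle and mitotic chromosomes. It did so in 65.3% of all genes.

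**Figure D4:**
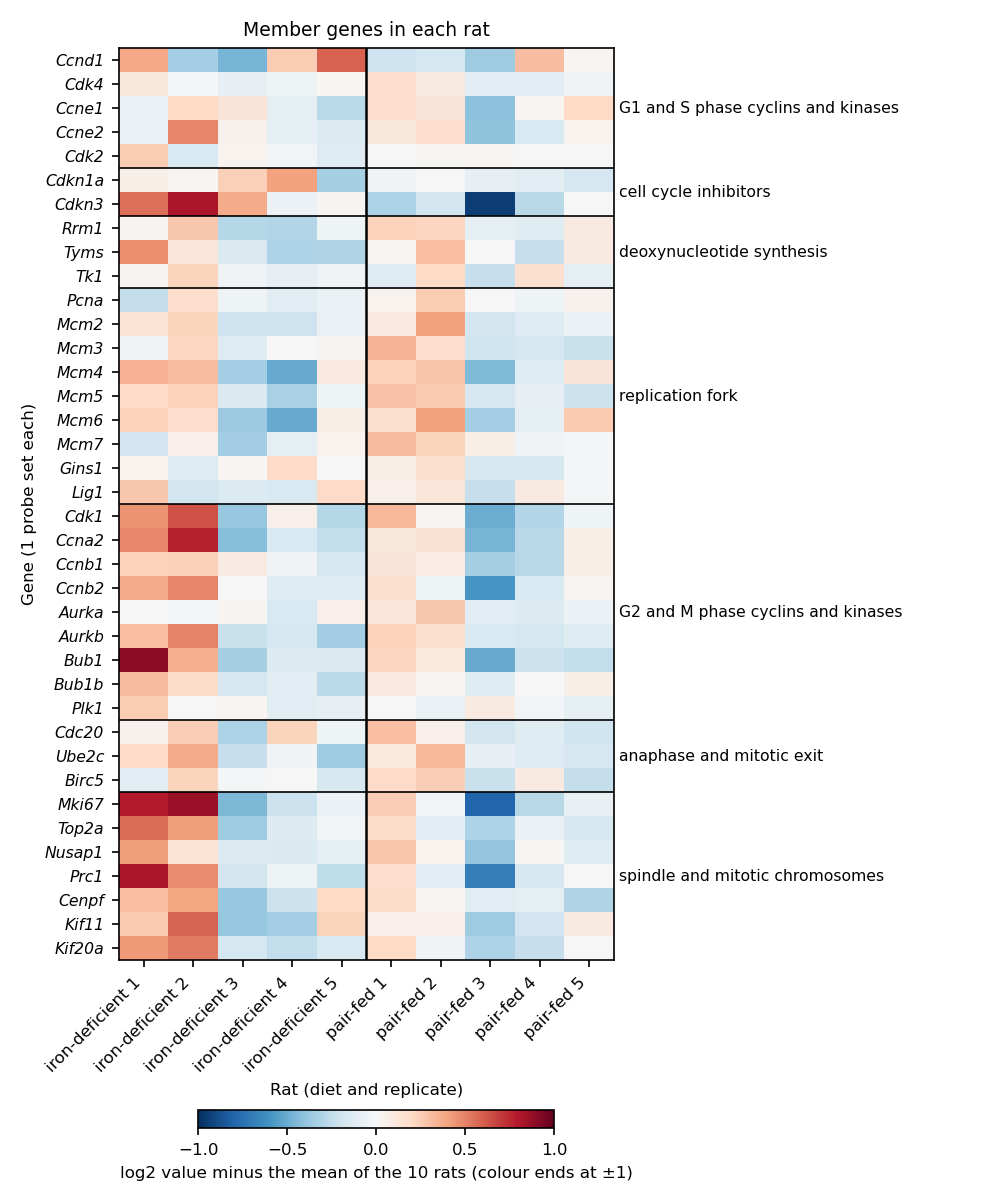
Each cell shows a member's log2 value in 1 rat minus its mean over the 10 rats, with genes in rows by role and rats in columns. Most of the G2, M phase and spindle genes are high together in iron-deficient replicates 1 and 2 and low together in pair-fed replicate 3. Plk1, Aurka, Ccnd1 and Cdkn1a have other patterns.

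Members of the mitotic and replication fork classes varied together from rat to rat. After each group's mean was taken out, the median Pearson correlation over the 10 rats was 0.52 over the 703 pairs of members, with 627 pairs (89.2%) above 0, and 0.00 over all pairs of the 14217 genes. Within the spindle and mitotic chromosome genes it was 0.86, within the G2 and M phase cyclins and kinases 0.78, and within the replication fork genes 0.48. Within the G1 and S phase cyclins and kinases it was 0.14, with 6 of 10 pairs above 0, and -0.14 without iron-deficient replicate 1. Between the 19 mitotic and the 9 replication fork members it was 0.53. The correlation of Rrm1 with the 19 mitotic members had a median of 0.71 and that of Cdkn3 a median of 0.65. Cdkn1a (-0.04) and Ccnd1 (-0.08) did not share the pattern. Leaving out 1 rat at a time gave a median of 0.48 to 0.58 over all members and 0.82 to 0.88 within the spindle and mitotic chromosome genes. The median within the iron-deficient rats alone was 0.53 over all members, and within the pair-fed rats alone 0.63. These correlations are a description over 10 arrays, whose members share the RNA preparation of each rat.

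The other genes of the pathway, 117 of 136 listed that could be measured, were lower in the iron-deficient group in 77 cases (65.8%, against 52.5% of all genes), with a median log2 fold change of -0.04. None was up-regulated and 2 were down-regulated, against 41 and 106 of all 14217 genes. How far the 117 genes varied together was not measured, so that they and their classes below are not taken as separate observations. Cdc25b, a phosphatase that activates Cdk1 at the entry to mitosis, read 7.24, 6.33, 6.67, 7.25 and 6.81 in iron-deficient replicates 1 to 5 and 6.72, 8.29, 7.92, 7.98 and 7.59 in pair-fed replicates 1 to 5. All 5 iron-deficient rats lay below pair-fed replicates 2 to 5, and pair-fed replicate 1 lay among them. The list mean of the erythroid markers described below was 5.81, 5.69, 5.82, 6.17 and 5.94 in iron-deficient replicates 1 to 5 and 5.91, 6.69, 6.58, 6.55 and 6.35 in pair-fed replicates 1 to 5, with pair-fed replicate 1 again among the iron-deficient rats and iron-deficient replicate 2 again lowest. Their part in the Cdc25b value was not tested. The log2 fold change was -0.84 (SE 0.26), the FDR 0.0004 and the exact permutation p 0.0397. The call was kept without any 1 of the 10 rats, with log2 fold changes of -1.08 to -0.69, and limma gave an adjusted p of 0.606.

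Gadd45g, a stress gene that inhibits Cdk1 with cyclin B, passed as down-regulated with an FDR of 0.0341. It read 7.77, 7.01, 7.17, 9.28 and 6.53 in iron-deficient replicates 1 to 5 and 6.53, 7.63, 9.89, 6.03 and 9.11 in pair-fed replicates 1 to 5, so that 1 iron-deficient and 2 pair-fed rats were high and the groups overlapped throughout. The log2 fold change of -0.28 had an SE of 0.71 and an exact permutation p of 0.786, and became 0.23 without pair-fed replicate 3 and 0.03 without pair-fed replicate 5. E2f5, an E2F factor that represses its targets, was the 1 pathway gene of 117 whose groups did not overlap, against 1.29% of all probe sets and 231 of all 14217 genes. It read 7.07, 7.03, 7.05, 7.10 and 6.89 in iron-deficient replicates 1 to 5 and 7.25, 7.20, 7.16, 7.12 and 7.34 in pair-fed replicates 1 to 5. Its log2 fold change was -0.19 (SE 0.07, exact permutation p = 0.00794, the smallest that 5 against 5 rats allow), and it did not pass the rank products or limma (adjusted p 0.641).

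By class, the genes lower in the iron-deficient group were 10 of 12 for origin licensing and firing, 19 of 25 for polymerases, clamp loader and chromatin assembly, and 13 of 17 for E2F, Rb and transcription. They were 8 of 10 for other nucleotide enzymes, 10 of 18 for other cyclins, kinases and their regulators, 5 of 9 for p53 and growth arrest, and 12 of 26 for other mitotic genes. The class medians ran from -0.07, for origin licensing and firing, to 0.03, for the other mitotic genes. Of the enzymes of DNA and nucleotide synthesis and repair that are reported to hold iron, 10 of 14 listed were measured, 7 were lower, and none passed or had groups apart. Their median log2 fold change was -0.05, with Pola1, the catalytic subunit of DNA polymerase α, at -0.17 and Pole, that of DNA polymerase ε, at 0.12. Of all 14217 genes 52.5% were lower, 41 were up-regulated, 106 down-regulated and 231 had groups apart. At such shares few calls are to be had among 10 genes.

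Some markers of other cell types differed between the diets or between the rats. Hepatocyte markers read 14.54 to 14.64 as a list mean in all 10 rats. Of all 14217 genes 52.5% were lower in the iron-deficient group, 41 were up-regulated and 106 down-regulated. Of 9 measured markers of erythroid cells 8 were lower in that group and 4 were down-regulated, namely Alas2, Hemgn, Ahsp and Slc4a1. Their list mean was 5.69 to 6.17 in the iron-deficient and 5.91 to 6.69 in the pair-fed rats, and iron-deficient replicate 2, with the highest mean over the members, had the lowest mean of these markers. Pair-fed replicate 3, with the lowest mean over the members, had 6.58. Yet pair-fed replicate 2, which was high over the members (6.86), had the highest mean of these markers (6.69). Of 8 markers of stellate cells and fibroblasts 7 were higher and 1, Lum, was up-regulated, and their list mean was highest in iron-deficient replicate 1 (8.39, against 7.65 to 8.09 in the other rats). The 6 other marker lists, for hepatocytes, macrophages, T and NK cells, B cells, endothelial cells and bile duct cells, held 33 measured genes, of which 0 passed. Lower in the iron-deficient group were 5 of 6 macrophage, 7 of 8 T and NK cell, 2 of 2 B cell and 3 of 5 bile duct markers. Higher were 6 of 7 hepatocyte and 4 of 5 endothelial markers. Groups did not overlap for the erythroid marker Hemgn, lower by a log2 fold change of -1.23, and the hepatocyte marker Ttr, higher by 0.06. This held for 231 of all 14217 genes. Iron-deficient replicate 1 also stood apart in its array controls. Its 3' minus 5' difference was 0.36 on the GAPDH controls, against -0.05 to 0.11 in the other arrays. On the beta-actin controls it was 1.74, against 1.08 to 1.33. Without this rat the medians were 0.02 over the members and 0.07 over the spindle and mitotic chromosome genes. The latter was 0.15 with all rats and 0.05 without iron-deficient replicate 2. The part of these cell types and of the 3' to 5' difference in the values of the members was not tested.

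**Figure D5:**
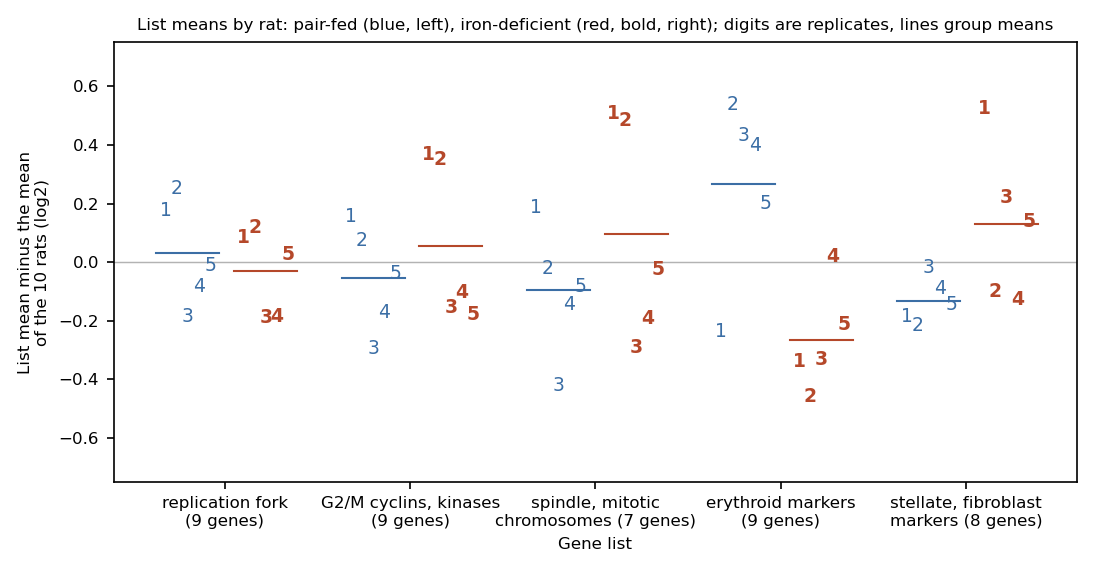
Digits mark the replicate number of each pair-fed (blue, left) and iron-deficient rat (red, right) at its mean log2 value over a gene list, minus the mean of the 10 rats (y axis), for 5 lists (x axis), and lines mark group means. Iron-deficient replicates 1 and 2 stand highest for both mitotic lists, and the erythroid markers are low in 4 of the iron-deficient rats and in pair-fed replicate 1.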

How the data were processed

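Liver RNA of 10 rats was measured on 1 array each, 5 per diet. The authors deposited log2 values per probe set, made by the robust multiarray average (RMA), a method that compresses low signals. Samples were grouped by title and treatment, since the source label of the control samples names the other diet. Tests ran on 31042 probe sets, without the 57 controls; 20826 have 1 gene in the platform annotation, 436 several and 9780 none. Names were looked up in a RefSeq table of GRCr8. Each gene was read from the probe set with the highest mean over the 10 arrays.

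Rank products (Python 3.11.15, numpy 2.4.6) used the 25 pairs of arrays and 100 permutations of values within arrays, and a false discovery rate under 0.05 made a call of up- or down-regulated. limma 3.58.1 in R 4.3.3 gave fold changes, errors, 95% intervals and Benjamini-Hochberg adjusted p-values over the whole table. Exact permutation tests of single genes ran over 252 relabellings. Rank products and limma were tested on simulated data. Lists are described by counts and medians without a test. With 5 arrays a group, precision is limited by their number.

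Members with values in every rat are Rrm1 and the shared Rrm2 signal, members past the rank products or with groups apart, and the member of each role with the largest change; pathway genes are named if they passed or their groups did not overlap. The members, lists and rules were chosen with earlier results of these data known, including the authors' own list of changed genes, so that no count is independent evidence. The alternatives were limma, the rank sum, a replicate block, probe set means, a filter on dim probe sets, median centring, quantile normalization, another random seed and leaving out each rat.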

Additional observations from a re-analysis of the deposited data

Results flagged for a closer look

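In 3 of the 76 groups of 5 rats formed by the 38 members and the 2 diets, 1 rat lay far from the other 4 by Dixon's test, which chance alone gives in about 1 of 20 groups. Ccne1 was lowest in pair-fed replicate 3, at 6.44 against 6.87 in the next rat. Ccne2 was highest in iron-deficient replicate 2, at 6.49 against 6.04. Pcna was highest in pair-fed replicate 2, at 10.38 against 10.17.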

How the results depend on the processing

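Cdkn3 was the only member up-regulated, and 0 members were up-regulated by the rank sum, by limma, by limma with a replicate block and without iron-deficient replicate 2. The range without 1 rat was 0 to 1. The rank products over the 5 same-numbered pairs (replicate block) gave 1 member up-regulated and 0 down-regulated, as without the block, and changed no call on the named genes. The labels do not say whether the replicate numbers pair the rats. The deviations of same-numbered arrays from their group means had correlations of -0.04 to 0.09, which cannot settle whether they do. No member was down-regulated under any alternative run. For the other pathway genes, 2 down-regulated became 0 by the rank sum, by limma and by limma with a replicate block, and 1 to 3 without 1 rat. Gadd45g was lost without iron-deficient replicate 2, 3 or 5 or pair-fed replicate 2, and its log2 fold change turned to 0.23 and 0.03 without pair-fed replicates 3 and 5, in a range without 1 rat of -0.74 to 0.23. Cdc25b lost its call by the rank sum and limma. Myc, of the E2F list (FDR 0.0514), passed as down-regulated with another random seed (FDR 0.0495) and without iron-deficient replicate 1 or 4 or pair-fed replicate 1 or 4. It also passed in the smaller table of 14217 gene means, where its own log2 fold change stayed at -0.39. The median log2 fold change ranged from -0.01 to 0.08 over the members without 1 rat, from -0.11 to 0.03 over the replication fork genes, from 0.04 to 0.20 over the G2 and M phase genes and from 0.05 to 0.25 over the spindle genes. Rrm1, Ccnd1, Mcm7, Cdc20 and E2f5 kept their sign and did not pass under any alternative run. So did Bub1 and Mki67, except that the filter on dim probe sets removed both, so that they have no value under it. Median centring and quantile normalization changed no call on the named genes, and the filter on dim probe sets changed none on those it kept.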
